A study of Mus musculus with 4 samples.

Results

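Class I histone deacetylases and their corepressor partners were followed in mouse embryonic stem cells (ESC) treated with MS-275. The genes were the enzymes Hdac1, Hdac2, Hdac3 and Hdac8, the scaffolds Sin3a and Sin3b, the corepressor Ncor1, and Mta1 and Mta2 of the NuRD complex. They were found by symbol in the value list of each library, and all 9 were present among the 28250 genes listed. RNA-seq was run on TBV2, a feeder-dependent ESC line grown with LIF, a cytokine that holds ESC undifferentiated. In 1 group of 2 libraries the cells had received solvent for 24 h, and in the other group of 2 libraries they had received 5 µM MS-275 for 24 h. MS-275, also called entinostat, is an inhibitor of class I histone deacetylases. All cells came from 1 line, and whether the sequenced cells were wild type or carried EGFP was not given in the sources used here. RNA was purified by 2 rounds of poly(A) selection. Nothing in the labels says that the 2 libraries of a group came from separate cultures, so p-values measure only the spread between these libraries. With 2 libraries per group, the tests also draw part of the variance of each gene from all genes tested. A small p-value is thus not evidence from many replicates.

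Histone deacetylases remove acetyl groups from the lysines of histone tails, and loss of these groups is generally linked to compact, silent chromatin. Hdac1 and Hdac2 are closely related and work inside the Sin3, NuRD and CoREST complexes, which bring them to DNA through scaffold and reader subunits. Hdac3 works with the NCoR corepressor, which also switches on its activity, while Hdac8 is not known to need such a complex. The authors describe MS-275 as an inhibitor of class I enzymes only, and mainly of HDAC1 and HDAC2. The comparison asks how the RNA of the class I enzymes and of their partners stood after 24 h of treatment. These libraries do not show which of the enzymes were inhibited.

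For each library the authors deposited a normalised expression value per gene, without a formula, and the positions of 35-base alignments on the mm9 genome. The libraries held between 9785619 and 23467935 alignments and between 9122347 and 10973569 distinct positions. A distinct position is 1 start and strand counted once. Repeats of a position made up 53.2% (solvent) and 54.4% (MS-275) of the alignments labelled replicate 1. Among the alignments labelled replicate 2, repeats made up 0.0% with either treatment. The cause of this difference, and its part in the differences between replicates, was not tested. Across 13021 genes, a library's values tracked the alignments of its fellow replicate more closely (Pearson's r from 0.936 to 0.948) than the alignments deposited with it (r from 0.833 to 0.914). The mitochondrial genes ND5 and ND6 had values of 1.41 to 1.63 in replicate 1 of both conditions and were listed at 0 in replicate 2, while mitochondrial alignments were found only in those of replicate 2. Whether the alignments were exchanged between replicates was not settled. Such an exchange lies within each condition and leaves the group means, and the fits with a replicate block, as they are. Replicate numbers below are those of the file a number comes from. All 10 ESC markers were above 0 in each library, and their summed value ran from 6.12 to 19.7 with solvent and from 4.99 to 11.1 with MS-275. The summed value of 10 fibroblast markers, for cells of the feeder layer, ran from 0.377 to 0.517 with solvent and from 0.660 to 0.884 with MS-275, with no marker at 0. Of these markers, 7 were higher with MS-275 in both pairs and 2, Col3a1 and Dcn, were lower in both. Their median value was 0.0199 and 0.0160 with solvent and 0.0494 and 0.0161 with MS-275. The part of these shifts in the results was not tested, and fewer cells of a type and less RNA per cell cannot be told apart in bulk libraries.

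All 9 genes were expressed, with values between the 59.8th and the 99.2nd percentile of the genes listed in a library. MS-275 left no single direction over them: Hdac1 and Sin3b were higher in both replicate pairs, Hdac8, Ncor1, Mta1 and Mta2 were lower in both, and Hdac2, Hdac3 and Sin3a went opposite ways in the 2 pairs. Thus 2 of 9 genes were higher in both pairs, against 50.0% of the 20336 genes tested, and 4 of 9 were lower in both, against 26.5%. Both MS-275 values lay below both solvent values for 2 genes, Mta1 and Hdac8 (12.0% of all genes tested), and above them for 0 genes (32.3%). The median log2 fold change of the 9 genes was -0.06, beside 0.20 over all genes tested. In limma without a replicate block, 0 of the 9 genes passed an adjusted p of 0.05 as higher (0.00492% of all genes did) and 0 as lower (0.0%). In the same fit 0 of the 9 had an unadjusted p under 0.05, against 2974 of the 20336 genes tested as higher and 564 as lower. When same-numbered libraries were compared as pairs with a replicate block, 1 gene passed as higher, Hdac1 (21.0% of all genes), and 1 as lower, Ncor1 (6.46%). With median-ratio scaling added to the block, 0 passed as higher (16.4%) and 3 as lower, Ncor1, Mta1 and Mta2 (13.8%). With quantile normalization added, 1 passed as higher, Sin3b (14.4%), and 3 as lower, again Ncor1, Mta1 and Mta2 (14.6%).

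**Figure D1:**
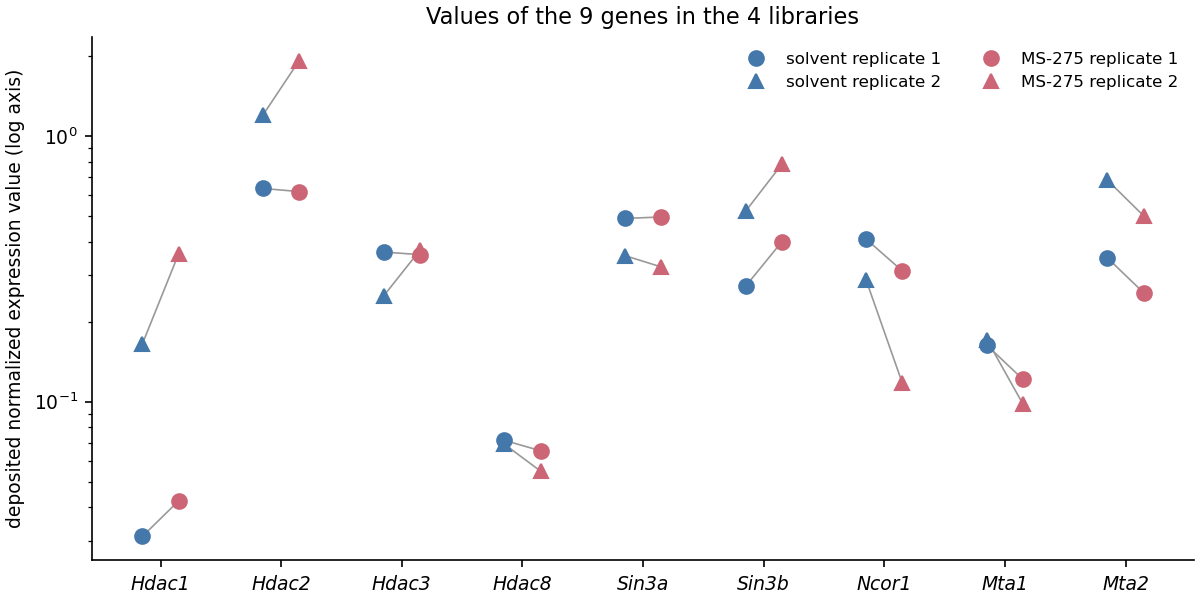
The deposited normalised value of each gene (log axis) in the 4 libraries, circles for replicate 1 and triangles for replicate 2, with grey lines joining same-numbered solvent (blue) and MS-275 (red) libraries. The Hdac1 points of the 2 replicates lie far apart in both groups, while the 4 Hdac8 points lie between 0.0548 and 0.0715.

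The values could be read against the alignments, since positions in the exons of a gene were counted as a readout of their own, and positions in introns as another. In exons, limma-voom without a block called 0 of the 9 genes higher (15.4% of the 16783 genes tested) and 2 lower, Ncor1 and Mta1 (5.15%). With the block it called 2 higher, Hdac1 and Sin3b (30.0%), and 3 lower, Ncor1, Mta1 and Mta2 (14.0%). In introns, the fit without a block called 1 gene higher, Hdac1 (11.1% of 13673 genes), and 0 lower (2.88%), and with the block 1 higher, Hdac1 (28.9%), and 2 lower, Ncor1 and Mta1 (13.6%). In the fits without a block, 7 of the 9 genes had 1 direction in the values, the exons and the introns, the exceptions being Hdac8 and Sin3a. The same share over all genes was not computed, and the readouts come from the same libraries. The count therefore says nothing particular about the 9 genes.

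**Figure D2:**
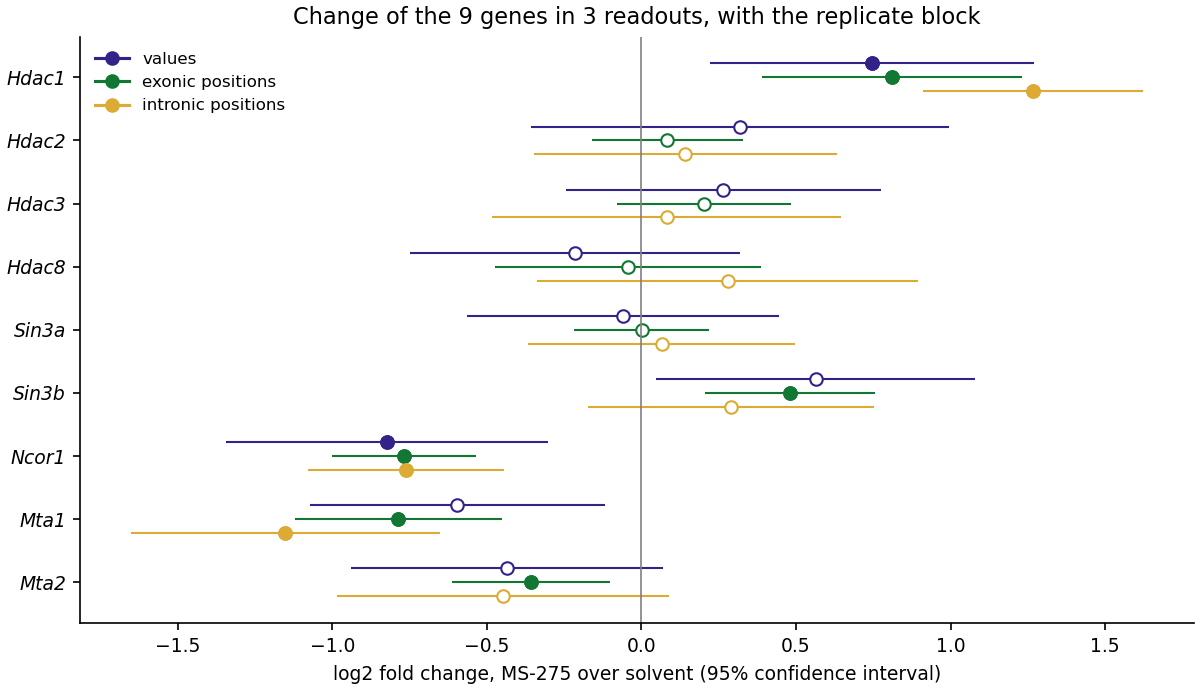
Log2 fold change of MS-275 over solvent with its 95% confidence interval for each gene, from limma with the replicate block on the values (violet), exonic positions (green) and intronic positions (yellow), filled where the adjusted p was under 0.05. Hdac1 lies right of 0 and Ncor1 left of 0 with filled points in each of the 3 readouts.

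Hdac1, the deacetylase of the Sin3, NuRD and CoREST complexes, lies on the minus strand of chr4:129193348-129219957 (mm9). It needs a word on its sequence first, because much of its mRNA occurs a second time in the genome. Gm10093, which RefSeq lists as the pseudogene Hdac1-ps, is 1 exon of 1977 bases at chr17:78890905-78892881 and resembles the spliced Hdac1 mRNA of 2038 bases. The 2 coding stretches of 1449 bases differ at 9 bases, an identity of 99.4%. As a result, 1248 of the 1562 windows of 35 bases inside the exons of Hdac1 (79.9%) also occur elsewhere in mm9. Of the 442 windows across a splice junction of the mRNA, 375 have a full match on the copy, as at the first junction. The lines below give the mRNA (bases 109 to 158), the plus strand of the copy (chr17:78890946-78890995) and the minus strand of the gene (chr4:129219800-129219849), with the second exon in capitals. Both the mRNA and the copy carry it, while the gene runs on into the intron.
Hdac1 mRNA: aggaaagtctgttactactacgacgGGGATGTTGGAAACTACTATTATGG
Copy on chromosome 17: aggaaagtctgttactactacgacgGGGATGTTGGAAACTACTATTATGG
Hdac1 gene on chromosome 4: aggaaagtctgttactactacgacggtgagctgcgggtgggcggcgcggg

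Elsewhere the copy can be told from the gene by single bases. The following stretches, from the coding part of Hdac1 (minus strand of chr4:129200273-129200313) and from the copy (plus strand of chr17:78891309-78891349), differ at the base in capitals.
Hdac1: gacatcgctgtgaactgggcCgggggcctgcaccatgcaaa
Copy: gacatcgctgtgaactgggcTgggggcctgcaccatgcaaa

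The value of Hdac1 was 0.0311 and 0.165 in solvent replicates 1 and 2, and 0.0423 and 0.360 in MS-275 replicates 1 and 2. Each MS-275 value was above the solvent value of the same replicate, but the groups overlapped, since replicate 2 was 5.31 times replicate 1 with solvent and 8.51 times with MS-275. The log2 fold change was 0.75 (95% interval from -1.35 to 2.85, limma adjusted p = 0.803) without the block and 0.75 (0.22 to 1.27, adjusted p = 0.0343) with it. The call with the block was lost under median-ratio scaling (0.48, adjusted p = 0.148), under quantile normalization (0.41, adjusted p = 0.207) and at a pseudocount of 0.02 (0.66, adjusted p = 0.0530). These scalings move the median of all genes from 0.20 to -0.01 and -0.03 on the log2 scale.

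Few positions stood behind the exons of Hdac1, and nearly none of them lay in repeated windows. The exons of all its transcripts held 158 and 91 distinct positions with solvent and 237 and 166 with MS-275. Scaled to positions per 1000000 in exons, these were 22.9 and 13.8 with solvent against 42.3 and 22.6 with MS-275. Inside the exons of the main transcript, the windows that occur elsewhere held 0 positions in replicate 1 of both groups, and 5 and 6 in replicate 2 of solvent and MS-275. Of the positions in exons of all transcripts, 58 and 27 with solvent and 94 and 63 with MS-275 lay in retained introns, which are exons of other Hdac1 transcripts. There MS-275 was 2.00 and 2.09 times solvent per 1000000, against 1.53 and 1.39 times inside the exons of the main transcript. The exonic counts are thus partly intronic for the main transcript. These counts gave a log2 fold change of 0.76 without the block (limma-voom adjusted p = 0.212) and 0.81 with it (adjusted p = 0.00205). Without the block it was 1.13 (adjusted p = 0.0923) without solvent replicate 1, 0.41 (0.618) without solvent replicate 2, 0.34 (0.588) without MS-275 replicate 1 and 1.25 (0.0165) without MS-275 replicate 2, so the call depended on the library left out.

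Windows that occur once in mm9 were then sorted into classes, which are given as values with no test. The 314 such windows inside Hdac1 exons held 90 and 55 positions with solvent and 112 and 85 with MS-275. The 225 windows that cross a junction of the Hdac1 mRNA and are found on the copy held 189 and 171 with solvent and 225 and 214 with MS-275. Thus a junction window held 0.840 and 0.760 positions with solvent, against 0.287 and 0.175 for a window inside an exon. The 263 windows of the copy that are not in the Hdac1 mRNA held 29 and 26 positions with solvent and 38 and 40 with MS-275, or 0.110 and 0.0989 per window with solvent. The windows shared by the spliced mRNA and the copy thus held more positions per window than those found on the copy but not in the mRNA. RNA of the gene and of the copy cannot be told apart in the shared windows. In positions per 1000000, MS-275 exceeded the solvent library of the same number in each of these classes, by 1.53 and 1.39 times inside the exons, 1.47 and 1.12 times across the junctions, and 1.61 and 1.38 times in the copy. How the authors' values treated the copy was not given in the sources used here.

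**Figure D3:**
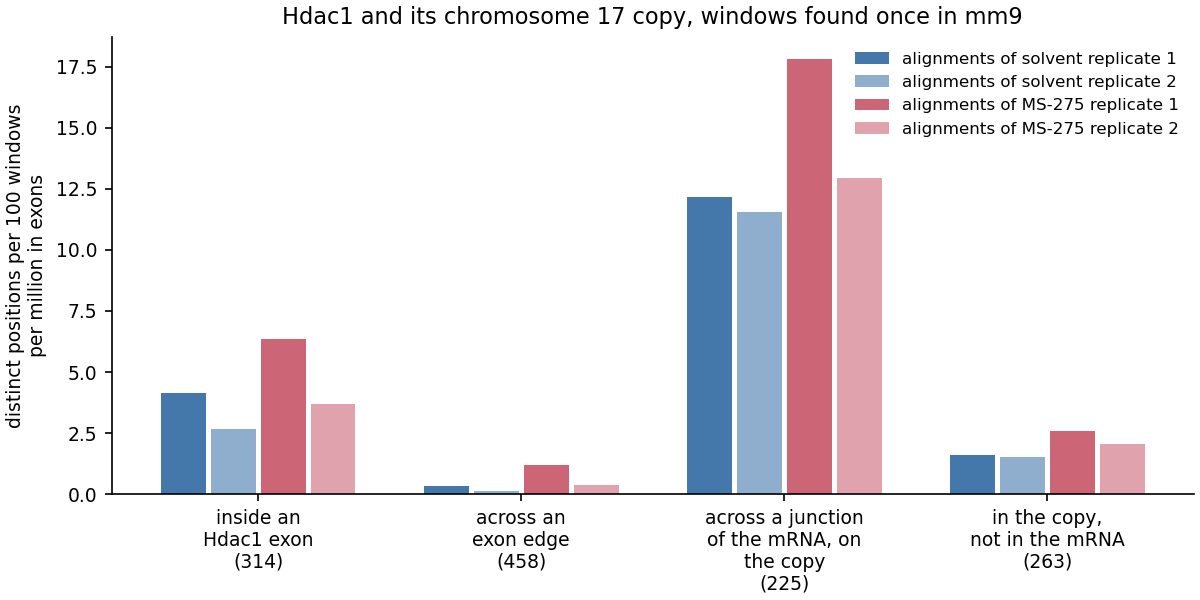
Distinct positions per 100 windows per 1000000 positions in exons for Hdac1 and its copy, by class of 35-base window found once in mm9 (number of windows in parentheses), with a bar for each library. The bars for windows across a junction, which lie on chromosome 17, are the tallest in all 4 libraries.

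The introns of Hdac1, which the copy lacks, gave a separate view. Over 23165 bases, against 3445 of exon, they held 380 and 284 distinct positions with solvent and 904 and 541 with MS-275. Scaled to positions per 1000000 in introns, these were 133 and 131 with solvent against 410 and 233 with MS-275, so both MS-275 libraries lay above both solvent libraries. Intronic Hdac1 rose by a log2 fold change of 1.23 (95% interval 0.52 to 1.94, limma-voom adjusted p = 0.0340), and by 1.27 with the block (adjusted p = 9.41e-11). The call rested on 1 library: without MS-275 replicate 1, the log2 fold change was 0.83 (adjusted p = 0.313). In each of 5 equal segments of the gene MS-275 was higher in both pairs, by a log2 ratio of 1.22 to 2.27 in pair 1 and 0.15 to 1.18 in pair 2. In 20 finer bins the increase was not unbroken. Per kb of intron per 1000000, bin 15 held 3.68 with MS-275 against 4.99 with solvent in pair 1. In pair 2, bin 18 held 3.18 against 3.85 and bin 19 held 2.56 against 2.76. MS-275 was higher in all other bins of each pair. Windows across an exon edge into an intron held 10 and 4 positions with solvent and 31 and 12 with MS-275.

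**Figure D4:**
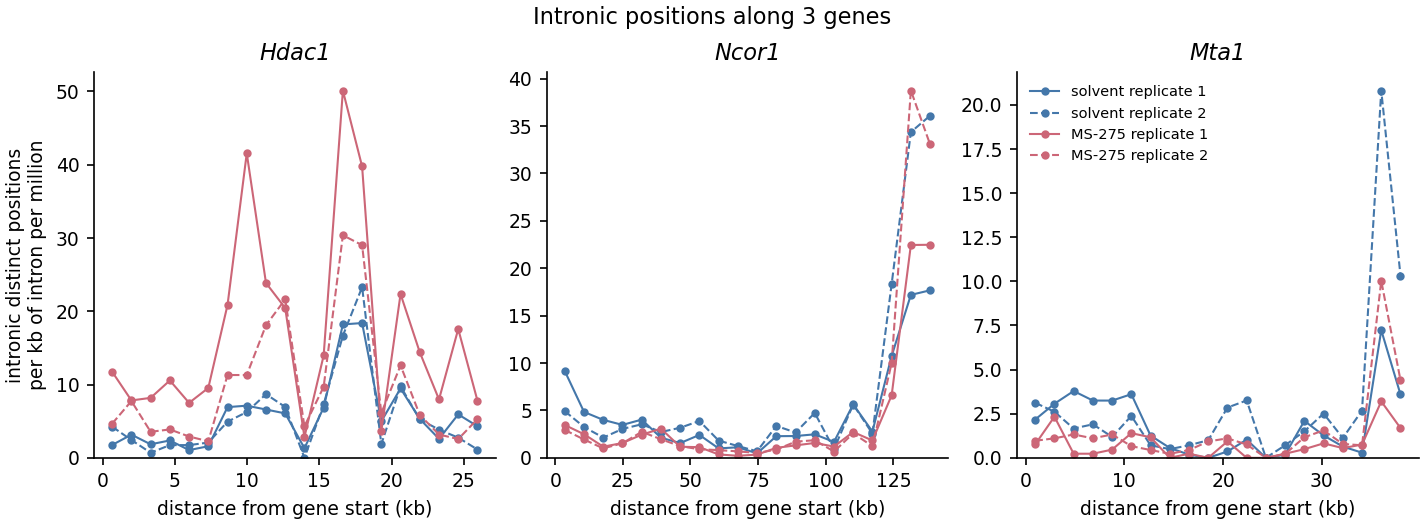
Intronic distinct positions per kb of intron per 1000000 along Hdac1, Ncor1 and Mta1, in 20 equal bins plotted by distance from the gene start, for solvent (blue) and MS-275 (red), solid for replicate 1 and dashed for replicate 2. The red lines run above the blue ones over most of Hdac1 and mostly below them in the first 100 kb of Ncor1. The bins of Ncor1 include bases that also lie within another gene, among them bases near its end.

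Hdac2, the paralogue of Hdac1 and its partner in the same complexes, lies at chr10:36694350-36721695. Its value was 0.635 and 1.20 with solvent and 0.618 and 1.92 with MS-275. It was nearly level in pair 1 and higher in pair 2, and the groups overlapped. The log2 fold change was 0.32 with the block (95% interval -0.36 to 0.996, adjusted p = 0.492), and in exonic positions 0.08 (-0.16 to 0.33, adjusted p = 0.602). All 4482 exonic windows of Hdac2 occur once in mm9. Its introns held between 115 and 141 positions in a library and gave 0.14 with the block (adjusted p = 0.681).

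Hdac3, the enzyme of the NCoR complex, lies on the minus strand of chr18:38095498-38114642. Its value was 0.366 and 0.250 with solvent and 0.358 and 0.372 with MS-275. The solvent libraries enclosed 1 of the 2 MS-275 values, and the log2 fold change with the block was 0.26 (95% interval -0.24 to 0.77, adjusted p = 0.445), which became -0.02 under median-ratio scaling. Hdac8, on the minus strand of chrX:99479978-99700698, had values of 0.0715 and 0.0692 with solvent and 0.0654 and 0.0548 with MS-275. Both MS-275 values were below both solvent values by a small step, with a log2 fold change of -0.22 (-0.75 to 0.32, adjusted p = 0.563 with the block). The exonic positions of Hdac8, 185 and 116 with solvent and 140 and 131 with MS-275, gave -0.04 (-0.47 to 0.39, adjusted p = 0.885), and its intronic positions gave 0.28 (adjusted p = 0.499).

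The enzymes and their scaffolds could be ranked per length by counting distinct positions only in windows that occur once in mm9 and lie inside the exons of the longest coding transcript. The level is the number of positions per 1000 such windows per 1000000 positions in exons. A window can hold at most 2 distinct positions, 1 per strand, so differences between highly covered genes are compressed. With solvent, Hdac2 had the highest level of the 9 genes, 100 ± 9.81 (SD, n = 2), followed by Sin3a at 72.1 ± 12.9, Mta2 at 60.2 ± 8.61, Hdac3 at 52.8 ± 4.61 and Ncor1 at 51.9 ± 4.65. Then came Mta1 at 36.0 ± 8.14, Hdac1 at 34.0 ± 10.5, Sin3b at 22.5 ± 1.89 and Hdac8 at 13.4 ± 3.64. The level of Hdac1 rests on 314 of its 1562 windows inside exons. Windows across its junctions, found on the copy, held 0.840 and 0.760 positions each with solvent, against 0.287 and 0.175 inside its exons. RNA of the gene and of the copy cannot be told apart there, so the place of Hdac1 in this order was not settled. The ranges of neighbours overlapped for Sin3a and Mta2, Mta2 and Hdac3, Hdac3 and Ncor1, and Mta1 and Hdac1, and did not overlap for the other neighbours. When the same positions were divided by all windows inside exons, repeated ones included, the figure for Hdac1 was 6.84, in the ninth place. That drop follows from the larger divisor, since positions in repeated windows were not added. It is not a second measurement and does not show Hdac1 to be below Hdac8. With MS-275 the order changed, with Hdac1 at 50.2 ± 18.9 behind Hdac2, Sin3a and Hdac3, Ncor1 at 30.3 ± 9.52 and Mta1 at 21.4 ± 0.585. The MS-275 range of Hdac1, 36.8 to 63.6, overlapped those of Hdac3, Sin3a, Mta2 and Ncor1, and the range of Sin3b overlapped that of Ncor1. Hdac2 stayed first at 109 ± 4.45 and Hdac8 last at 13.0 ± 2.89.

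**Figure D5:**
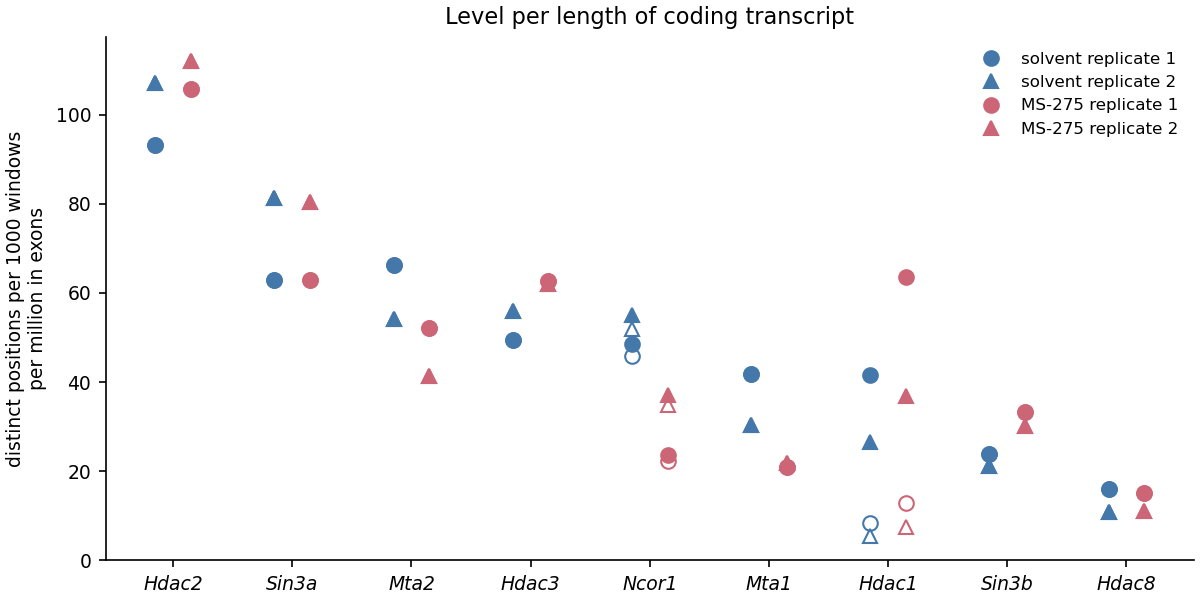
Level of each gene, as distinct positions per 1000 windows of 35 bases per 1000000 positions in exons, for the 2 solvent (blue) and 2 MS-275 (red) alignment files. Positions in windows found once in mm9 were divided by the number of these windows (filled) or of all windows (open, seen where the 2 differ). Hdac2 lies highest in all 4 libraries, and the open symbols of Hdac1 lie below its filled ones because of the larger divisor.

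Sin3a and Sin3b are the alternative scaffolds on which the Sin3 complexes are built. Sin3a (chr9:56919847-56976173) had values of 0.490 and 0.355 with solvent and 0.496 and 0.322 with MS-275. Each MS-275 value was close to the solvent value of its pair, and the log2 fold change was -0.06 (95% interval -0.56 to 0.44 with the block, adjusted p = 0.880). Its exonic positions, 1833 and 2212 with solvent and 1470 and 2492 with MS-275, gave 0.0012 (-0.22 to 0.22, adjusted p = 0.994). Sin3b (chr8:75247187-75282102) had values of 0.272 and 0.521 with solvent and 0.400 and 0.782 with MS-275. Replicate 2 was 1.92 and 1.96 times replicate 1 in the 2 groups, and MS-275 was 1.47 and 1.50 times solvent in the 2 pairs.

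The value of Sin3b gave a log2 fold change of 0.56, with an adjusted p of 0.721 without the block and 0.0972 with it, which passed only in the block fit after quantile normalization (0.61, adjusted p = 0.0131). Its exonic positions were 653 and 529 with solvent and 733 and 830 with MS-275, or 94.5 and 80.4 per 1000000 against 131 and 113. Here the groups did not overlap, and Sin3b rose by 0.48 with the block (95% interval 0.21 to 0.76, limma-voom adjusted p = 0.00458), against an adjusted p of 0.0951 without it. In introns the log2 fold change was 0.29 (-0.17 to 0.75, adjusted p = 0.330). Whether Sin3a and Sin3b differed in their response was not tested.

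Mta1 and Mta2 are subunits of NuRD that hold Hdac1 and Hdac2 in the complex. Mta1 (chr12:114336489-114375417) had values of 0.163 and 0.171 with solvent and 0.121 and 0.0978 with MS-275. The 2 solvent values were close together and both lay above both MS-275 values. The log2 fold change was -0.60 (95% interval -1.43 to 0.24, limma adjusted p = 0.495) and, with the block, -1.07 to -0.12 with an adjusted p of 0.0597. Under the block Mta1 passed with median-ratio scaling (-0.87, adjusted p = 0.00570) and with quantile normalization (-0.66, adjusted p = 0.0155).

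Exonic positions of Mta1 numbered 684 and 454 with solvent and 267 and 354 with MS-275, or 99.0 and 69.0 per 1000000 against 47.6 and 48.2. The groups did not overlap, and Mta1 fell with a log2 fold change of -0.79 (limma-voom adjusted p = 0.0497) and with the block also -0.79 (adjusted p = 2.83e-04). The call without the block was lost without solvent replicate 1 (-0.52, adjusted p = 0.377), without MS-275 replicate 1 (-0.78, adjusted p = 0.0507) and without MS-275 replicate 2 (-0.79, adjusted p = 0.0640). In introns, 194 and 225 positions with solvent stood against 60 and 117 with MS-275, and Mta1 fell in the block fit (-1.15, adjusted p = 4.46e-05) but not without the block (adjusted p = 0.0825).

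Mta2 (chr19:9016365-9026793) had values of 0.347 and 0.682 with solvent and 0.257 and 0.500 with MS-275. Each pair showed nearly the same step, MS-275 being 0.740 and 0.734 times solvent, while the replicates differed by 1.96 and 1.95 times and the groups overlapped. The log2 fold change was -0.43 (95% interval -0.94 to 0.07 with the block, adjusted p = 0.190). In exonic positions, 185 and 146 per 1000000 with solvent and 147 and 112 with MS-275, Mta2 fell by 0.36 on the log2 scale with the block (-0.61 to -0.10, adjusted p = 0.0204), while without it the adjusted p was 0.218. In introns the log2 fold change was -0.45 (-0.98 to 0.09, adjusted p = 0.181 with the block).

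Ncor1, the corepressor that carries Hdac3, lies on the minus strand of chr11:62129928-62272043. Its value was 0.409 and 0.286 with solvent and 0.310 and 0.117 with MS-275. MS-275 was lower in both pairs, at 0.759 and 0.409 times solvent, and the groups overlapped because the higher MS-275 value exceeded the lower solvent value. The log2 fold change was -0.82 (95% interval -1.95 to 0.31, limma adjusted p = 0.482), and with the block Ncor1 fell (-1.34 to -0.30, adjusted p = 0.0209). The call with the block held under quantile normalization (-0.82, adjusted p = 0.00178) and median-ratio scaling (-1.10, adjusted p = 0.00119).

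The exons of Ncor1 held 2635 and 2878 positions with solvent and 1062 and 2164 with MS-275, or 381 and 437 per 1000000 against 189 and 295. Both MS-275 libraries lay below both solvent libraries, and Ncor1 fell with a log2 fold change of -0.77 without the block (adjusted p = 0.0338) and -0.77 with it (adjusted p = 4.23e-06). Leaving out each library in turn gave -1.10 to -0.46, with an adjusted p of at most 0.0466. Its introns held 1196 and 1016 positions with solvent and 559 and 623 with MS-275, where Ncor1 fell in the block fit (-0.76, adjusted p = 2.15e-05) and had an adjusted p of 0.0593 otherwise. In 5 equal segments of the gene, the log2 ratio of the intronic positions ran from -1.30 to -0.35 in pair 1 and from -1.31 to -0.85 in pair 2 over the first 4 segments. In the last segment, where the density was highest, it was 0.12 and -0.14. The segments left out exons only, while the intron counts above also left out bases that lie within another gene. The last segment alone held 1078 positions in solvent replicate 2 and 1049 in MS-275 replicate 2, against 1016 and 623 in the intron counts. It thus includes stretches shared with another gene, where RNA of Ncor1 cannot be told apart. Among the exonic windows of Ncor1, 92.7% occur once in mm9.

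The other subunits of these complexes were read from 4 lists of 41 genes in all, each tested in the same fits. With the block on the values, 2 of the 41 passed as higher and 6 as lower, against 21.0% and 6.46% of all genes. In exonic positions with the block, 4 of 40 tested passed as higher and 11 as lower, against 30.0% and 14.0%. The median log2 fold change of the 41 genes was -0.05 in the values, beside 0.20 over all genes tested. In the values without the block 0 of the 41 passed in either direction, while both MS-275 values lay above both solvent values for 4 of them (32.3% of all genes tested) and below for 9 (12.0%).

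Among 15 Sin3 partners, 1 passed as higher and 1 as lower in the values with the block (21.0% and 6.46% of all genes). Sap130, a subunit of the Sin3 complex, had values of 0.290 and 0.246 with solvent and 0.413 and 0.517 with MS-275. It rose in the values with the block (0.78, adjusted p = 0.0246) and in exonic positions without it (0.67, adjusted p = 0.0198), while its introns gave 0.97 without it (adjusted p = 0.0866). Fam60a, a Sin3 subunit also called Sinhcaf, fell in the values with the block (-0.97, adjusted p = 0.0284) and in introns without it (-1.41, adjusted p = 0.0180), but did not pass in exonic positions without it (-1.03, adjusted p = 0.214). Of its exonic windows, 33.3% occur once in mm9. Ogt, which attaches N-acetylglucosamine to proteins, had a log2 fold change of -0.65 in the values (adjusted p = 0.0932 with the block) and fell in exonic positions without the block (-0.52, adjusted p = 0.0434). Brms1l, a paralogue of the Sin3 subunit Brms1, had a log2 fold change of 0.48 (adjusted p = 0.124 with the block).

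Among 11 NuRD partners, 1 passed as higher and 2 as lower in the values with the block (21.0% and 6.46% of all genes). Mta3, the third MTA gene, had values of 0.283 and 0.241 with solvent and 0.174 and 0.0660 with MS-275. It fell in the values with the block (-1.24, adjusted p = 0.00218) and in exonic positions without it (-0.92, adjusted p = 0.0226), while its introns gave -0.38 without the block (adjusted p = 0.344). Cdk2ap1 also fell in the values with the block (-0.98, adjusted p = 0.0154) and in introns without it (-1.86, adjusted p = 0.0268), but did not pass in exonic positions without it (-1.82, adjusted p = 0.0621). Its values were 0.0119 at most and 41.8% of its exonic windows occur once in mm9. Mbd2, a subunit that binds methylated DNA, rose with the block (0.91, adjusted p = 0.00656), and in exonic positions by 0.42 (adjusted p = 0.0441 with the block), where it did not pass without the block (0.43, adjusted p = 0.187). Its introns gave -0.24 without the block (adjusted p = 0.666). The histone chaperone Rbbp4 had a log2 fold change of 0.32 (adjusted p = 0.557 with the block).

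Among 5 partners in the NCoR list, 0 passed as higher and 1 as lower in the values with the block (21.0% and 6.46% of all genes). Tbl1xr1, a WD40 repeat subunit of the NCoR complex, had values of 0.245 and 0.278 with solvent and 0.115 and 0.0961 with MS-275, so the groups did not overlap. It fell with the block (-1.27, adjusted p = 6.49e-04) and in exonic positions without it (-1.24, adjusted p = 0.00513), while its introns gave -0.97 without it (adjusted p = 0.0630). Its paralogue Tbl1x had a log2 fold change of -0.47 (adjusted p = 0.129 with the block) and Gps2 one of 0.37 (adjusted p = 0.236).

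Among 10 genes of CoREST and of the mitotic deacetylase complex MiDAC, 0 passed as higher and 2 as lower in the values with the block. The shares of all genes were 21.0% and 6.46%. Rcor3, a CoREST protein, had values of 0.116 and 0.0645 with solvent and 0.0443 and 0.0410 with MS-275. It fell with the block (-0.95, adjusted p = 0.0159) and, without it, in exonic positions (-0.94, adjusted p = 0.0338) and introns (-1.39, adjusted p = 0.0373). Elmsan1, a MiDAC scaffold listed as C130039O16Rik, fell likewise (-0.82, adjusted p = 0.0236 with the block, and -0.83, adjusted p = 0.0286 in exonic positions without it), while its introns gave 0.17 without the block (adjusted p = 0.808). Hmg20b and Dnttip1 had log2 fold changes of 0.03 and 0.28, with adjusted p-values of 0.929 and 0.388 with the block.

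The genes whose values were most like those of Hdac1 over the 4 libraries were Cables2, Cox6a1 and Snrpc, by the distance between log2(value + 0.005) profiles centred on their own means. The distances were 0.114, 0.220 and 0.233. Cables2 had values of 0.0831 and 0.441 with solvent and 0.119 and 0.988 with MS-275. As for Hdac1, replicate 2 was far above replicate 1 in both groups.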

How the data were processed

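As deposited by the authors, the signal per gene is a normalised expression value that Genomatix gave from reads on mm9. The aligner, version and formula were not given in the sources used here. The authors' tables of ratios between conditions hold their own comparison and were not used. Groups came from the sample titles. Where a title marked a repeat of a condition, that sample was replicate 2.

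A gene was kept if 2 or more libraries reached 0.001 (20336 genes) and fitted on log2(value + 0.005) with limma 3.58.1 (lmFit, eBayes with a trend) in R 4.3.3. Fold changes on this scale understate those of low genes. Adjusted p-values are Benjamini-Hochberg values over all genes tested, two-sided, at a threshold of 0.05. With 2 libraries per group an exact permutation test cannot reach that threshold, so none was run on single values. The test without a block is the primary one. The replicate numbers pair libraries through the authors' column headers, which mark replicate 1 of both conditions as old, and same-numbered libraries departed from their group means together (r = 0.764 over 20336 genes).

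Distinct alignment positions (chromosome, start and strand) were counted on exons and introns of GENCODE M1 genes on mm9. Those reaching 10 positions in 2 or more libraries were tested with limma-voom. Uniqueness of 35-base windows was checked on both strands of mm9. Python 3.11.15, numpy 2.4.6, pandas 2.3.3, biopython 1.88 and matplotlib 3.10.9 were used. The limma fits on values, with and without the block, and limma-voom on exonic positions without the block were also run on simulated data. Limma-voom with the block and the fits on intronic positions were not.

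The 9 genes and the lists of partners and markers were chosen with earlier results of these data known. Of each partner list, the text names the 2 genes with the highest and the 2 with the lowest log2 fold change in the values, and the 3 genes with profiles nearest to Hdac1. A gene that this rule names is not reported here. Listed symbols matched as written, except that Elmsan1 and Tfcp2l1 were found under older symbols. Intronic positions, window classes and position counts without each library were added after the data were seen. Other settings tried were the replicate block alone and combined, quantile normalization, scaling by median ratios, pseudocounts of 0.02 and 0.001, a filter at a mean of 0.01 or none, an untrended eBayes, all alignments, and each library left out.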

Additional observations from a re-analysis of the deposited data

How the results depend on the processing

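The replicate block decides most calls. In the values, 0 of 9 genes passed as higher and 0 as lower without it, against 1 and 1 with it, 1 and 3 with the block and quantile normalization, and 0 and 3 with the block and median-ratio scaling. With the block and a pseudocount of 0.02, 0 passed as higher (18.6% of all genes) and 1 as lower (5.69%). Exonic positions gave 0 higher and 2 lower, and 2 and 3 with the block. Intronic positions gave 1 higher, and 1 and 2 with the block. Of the 41 partners, 0 passed in the values without the block, against 2 higher and 6 lower with it (the same counts at a pseudocount of 0.02), 2 and 12 with quantile normalization and 1 and 13 with median-ratio scaling added. The shares of all genes in these 3 block fits were 21.0% and 6.46%, 14.4% and 14.6%, and 16.4% and 13.8%. Exonic positions called 1 partner higher and 6 lower (15.4% and 5.15% of all genes), and 4 and 11 with the block (30.0% and 14.0%). Intronic ones called 0 higher and 4 lower (11.1% and 2.88%), and 3 and 8 with the block (28.9% and 13.6%). The median log2 fold change of the 9 genes, -0.06, became 0.016 under quantile normalization and -0.34 under median-ratio scaling, with or without the block, 0.014 in exonic positions, and 0.10 in intronic ones (0.081 with the block). It ran from -0.19 to 0.039 as each library was left out. A fit without a library leaves a lone library in a group, which is assumed to vary like the others, and carries the offset between replicates. Such fits gave 0 to 2 genes higher (11.6% to 14.5% of all genes) and 1 to 2 lower (3.43% to 6.66%) in exonic positions, and 0 to 1 higher (3.42% to 13.4%) and 0 to 1 lower (0.763% to 3.86%) in introns. Directions reversed for Hdac3 under median-ratio scaling (-0.017), for Hdac8 in introns (0.31, and 0.28 with the block), and for Sin3a under quantile normalization (0.016), in exonic positions (0.014, and 0.0012 with the block) and in introns (0.049, and 0.065 with the block). As libraries were left out, the value of Hdac1 ran from -0.73 to 2.22, Hdac2 from -0.50 to 1.14, Hdac3 from -0.0056 to 0.53, Sin3a from -0.37 to 0.25 and Mta2 from -0.92 to 0.046. In exonic positions Hdac8 ran from -0.36 to 0.25 and Sin3a from -0.18 to 0.19, and in introns Hdac3 from -0.24 to 0.45, Sin3a from -0.14 to 0.26 and Mta2 from -1.43 to 0.36. The cause of these changes was not tested. The depth behind a single value is unknown.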
